A study of Mus musculus with 18 samples.

Results

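The comparison described here is the change in the FGF6 effect between 8 h and 24 h of treatment, taken gene by gene. For each gene the effect was the log2 ratio of FGF6 to vehicle, and the effect at 8 h was subtracted from the effect at 24 h. It rests on 12 of the 18 RNA-seq libraries, 3 in each of 4 groups, all from 1 immortalized line of mouse brown preadipocytes, the precursors of brown fat cells. The 4 groups were vehicle for 8 h, FGF6 for 8 h, vehicle for 24 h and FGF6 for 24 h, with FGF6 at 200 ng/ml. Every cell of every group carried the SV40 T antigen used to immortalize the line, which came from the stromal vascular fraction of brown fat and stands for 1 line, not for separate animals. The libraries at 4 h entered the choice of genes tested, the scaling and the estimate of the spread, but not the contrast itself. The questions were which genes and pathways gained, lost or reversed the FGF6 effect, and whether the vehicle cells or the treated cells had moved.

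FGF6 is a secreted paracrine fibroblast growth factor. Such ligands bind receptor tyrosine kinases together with heparan sulfate and switch on RAS-ERK and PI3K-AKT signaling, which induces immediate early transcription factors, then ETS factors and a set of feedback inhibitors such as the Sprouty proteins and the dual specificity phosphatases. In precursor cells of fat, FGF signaling is known for driving division and for altering differentiation, and in brown fat the protein of most interest is UCP1, the mitochondrial proton carrier that turns fuel into heat.

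The 12 libraries held 24327816 to 33471980 counts each, and a floor of 3 counts came to 0.0905 to 0.126 CPM. CPM is a count per 1000000 counts of the 15071 genes tested, after scaling by TMM, which corrects library totals for differences in composition. Vehicle 24 h replicate 3 stood apart in 2 transcripts, seen once the values were known: CT010467.1 reached 10600 CPM there and 80.6 to 172 CPM in the other 11 libraries, and Lars2, a mitochondrial leucyl-tRNA synthetase, reached 2450 CPM against 144 to 208. Leaving that library out moved no count given below by over 1.5 times. Of 15 stromal precursor markers, Pdgfra had 2460 to 9471 counts and Vim 61078 to 147425 counts in the 12 libraries. Another 3, Dlk1, Dpp4 and Myf5, had none in any library. Ptprc (white blood cells) and Sox10 (Schwann cells) had at most 2 counts. Other immune and glial markers were detected, with Cd68 at 82 to 307 counts and Mbp at 13 to 91. Sums over marker genes are given in raw CPM, that is per 1000000 counts of the whole library, without TMM. The 6 Schwann and glial markers summed to 5.83 to 6.38 raw CPM with vehicle and 2.2 to 2.53 with FGF6 at 8 h. At 24 h they summed to 6.05 to 6.33 raw CPM with vehicle and 3.1 to 3.67 with FGF6. In each group 1 or 2 of the 6 were at or under the floor. Summed over 15 precursor markers, the level was 4810 to 4850 raw CPM with vehicle and 5950 to 6160 with FGF6 at 8 h. At 24 h it was 5800 to 6160 and 6810 to 7010. Within this sum Vim had 61078 to 68357 counts in vehicle 8 h and 139567 to 147425 in FGF6 24 h, whereas Pdgfra had 8842 to 9471 and 2460 to 2614. Of the 12 precursor markers tested, 8 were lower with FGF6 at 24 h and 4 higher. These shares were 37.9% and 35.9% over all genes. Of the brown lineage genes, Ebf2 had 813 to 1756 counts and Prdm16 149 to 412, while Zic1 had at most 4 counts, Lhx8 at most 3, and Dio2 none. The labels call the 3 libraries of a group separate samples but do not say that they were separate cultures, so p-values measure the spread between these samples, which may be technical.

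The FGF6 effect differed between 8 h and 24 h for 6797 of the 15071 genes tested, 45.1%, at an adjusted p under 0.05 from edgeR. Of these, 3412 had a higher effect at 24 h (22.6% of all genes) and 3385 a lower one (22.5%). The balance changed with size. At 2-fold, that is a difference of at least 1 on the log2 scale, 300 genes were higher (1.99%) and 980 were lower (6.5%), 1280 in all (8.49%). Over all genes the median difference was 0.003, and the middle of the distribution, from the 5th to the 95th percentile by rank, ran from -1.53 to 0.84, a longer tail on the lower side. With 3 libraries against 3, an exact permutation test of 1 gene at a single time cannot give less than p = 0.1. That limit does not apply to the difference of effects, which spans 4 groups. Single genes are given with edgeR's adjusted p.

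Strengthening of an existing reduction was the most frequent form of a 2-fold change. FGF6 already changed 4881 genes upward (32.4%) and 5783 downward (38.4%) at 8 h, and 5409 upward (35.9%) and 5706 downward (37.9%) at 24 h. Among the 1280 genes with a 2-fold difference, 567 were lower at 8 h and lower still at 24 h, 200 became lower only at 24 h, and 85 went from higher to lower. In the other direction, 79 were higher at 8 h and higher still at 24 h, 72 became higher only at 24 h, and 58 went from lower to higher. An increase present at 8 h was no longer called at 24 h for 65 genes and was smaller for 53, and a reduction was no longer called for 56 and was smaller for 29. The remaining 16 passed the test of the difference but neither test at a single time. Without the 2-fold limit, 689 genes changed sign, 425 from lower to higher and 264 from higher to lower. Gained and lost depend on the threshold of each single-time test, whereas reversed genes passed at both times.

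**Figure D1:**
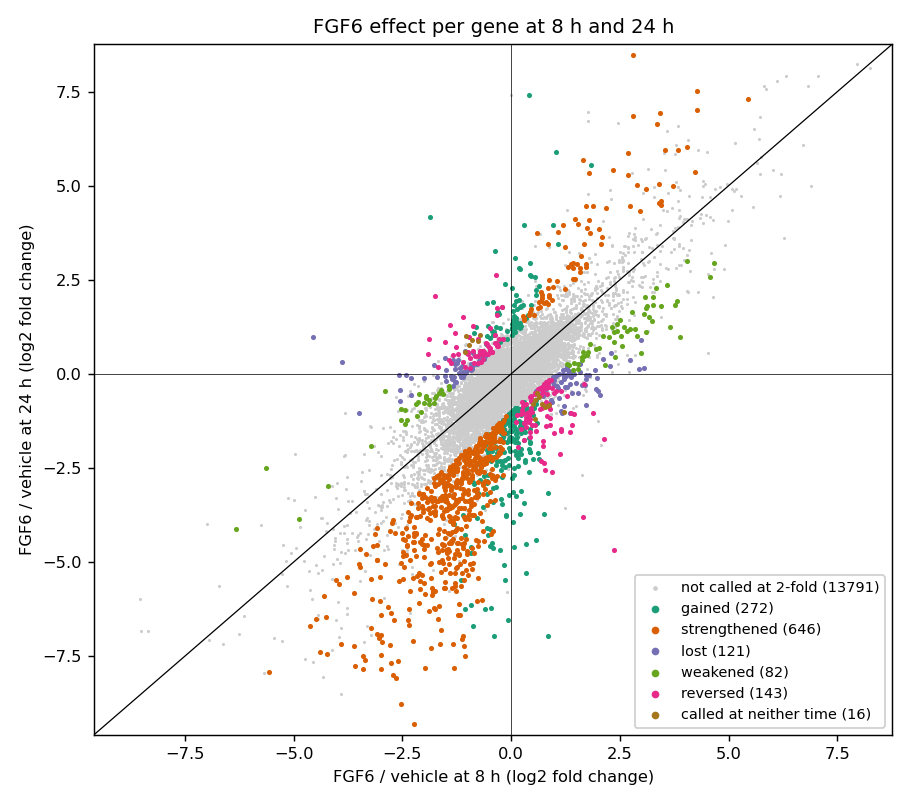
Each point is a gene, with its log2 fold change of FGF6 over vehicle at 8 h on the x axis and at 24 h on the y axis, and the solid diagonal marks equal effects. Coloured points differed by at least 2-fold between times (edgeR adjusted p under 0.05), and the 646 strengthened genes lie mostly in the lower left, below the diagonal, where 567 of them were lower at both times.

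The treated cells had moved more often than the vehicle cells. From 8 h to 24 h, 3839 genes rose (25.5%) and 3575 fell (23.7%) in vehicle cells, while 4686 rose (31.1%) and 4700 fell (31.2%) in FGF6 cells. A difference of effects equals the change in FGF6 cells less the change in vehicle cells, so each 2-fold gene was sorted by the larger of the pair. In 894 of the 1280 genes (69.8%) the FGF6 cells had changed at least 2 times as much as the vehicle cells on the log2 scale. In 128 (10%) the vehicle cells had changed at least 2 times as much as the FGF6 cells, in 243 (19%) both had moved in opposite directions, and in 15 (1.17%) both had moved the same way. The share led by the treated cells was 67.3% of the 300 higher genes and 70.6% of the 980 lower ones. By kind of change it ran from 86.2% of the 29 weakened reductions to 56.6% of the 53 weakened increases, and it was 50% of the 16 genes called at neither time.

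**Figure D2:**
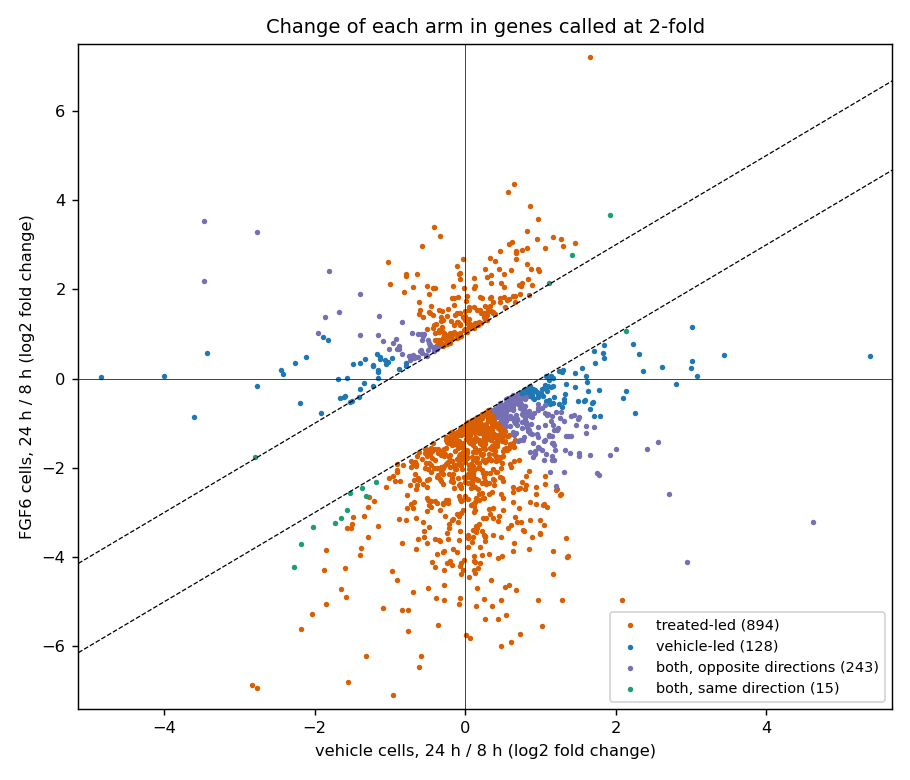
The log2 change from 8 h to 24 h is shown for vehicle cells on the x axis and for FGF6 cells on the y axis, for the 1280 genes with a 2-fold difference of effects. Dashed lines mark a difference of 1 on the log2 scale, and the 894 treated-led genes form the vertical cloud around a vehicle change of 0.

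Interferon-stimulated genes showed the deepest shift. These genes encode antiviral enzymes, antigen-processing proteins and the transcription factors that drive them. Of 38 tested, 37 had a lower effect at 24 h than at 8 h (97.4%, against 22.5% of all genes), 36 of them by at least 2-fold. Their median effect went from -1.29 at 8 h to -4.47 at 24 h. At 8 h 37 of the 38 were lower with FGF6, and at 24 h all 38, against 38.4% and 37.9% of all genes. The median change from 8 h to 24 h was 0.14 in vehicle cells, where 10 members rose and none fell. Over all genes 25.5% rose and 23.7% fell in vehicle cells, so the 10 that rose were near that share. In FGF6 cells the median change was -2.67, and 36 fell and none rose, against 31.2% and 31.1% of all genes. In bulk RNA, fewer cells that express a gene and less RNA per cell cannot be told apart, here and in every result that follows.

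Ifi44 (ENSMUSG00000028037, chromosome 3, 151730922 to 151749960 in GRCm38), an interferon-induced gene, differed most in this list. Vehicle cells had 116, 152 and 183 CPM of Ifi44 at 8 h and 155, 184 and 160 CPM at 24 h. FGF6 cells had 81.9, 50.3 and 67.1 CPM at 8 h and 1.53, 1.29 and 3.01 CPM at 24 h. The vehicle libraries of both times overlapped, the FGF6 libraries at 8 h lay below them, and those at 24 h lay far below all others. The Ifi44 effect went from -1.18 at 8 h to -6.42 at 24 h, a difference of -5.24 (standard error 0.37, edgeR adjusted p = 1.93e-11). Oas2, which makes the nucleotide signal that activates RNase L, had 26.1 to 44.3 CPM in the 6 vehicle libraries, 21, 11.3 and 15 CPM with FGF6 at 8 h, and 0.182, 0.143 and 0.697 CPM at 24 h. No FGF6 library overlapped a vehicle library, and the difference for Oas2 was -5.17 (standard error 0.55, edgeR adjusted p = 2.21e-08). Since its FGF6 values at 24 h reached down to near the floor, the size is uncertain. Mx2, of the antiviral Mx GTPase family, is annotated in GENCODE M21 as a polymorphic pseudogene. Mx2 RNA fell from 29.5, 18.5 and 31.1 CPM with FGF6 at 8 h to 0.875, 0.393 and 1.36 CPM at 24 h, and had 60.9 to 99.8 CPM in the 6 vehicle libraries. Its difference was -4.83 (standard error 0.46, edgeR adjusted p = 4e-09).

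Stat2 and Irf9, members of the list that encode subunits of ISGF3, the complex that binds the promoters of these genes, were named after their values were seen. Stat2 went from an effect of -1.36 to -3.54, and Irf9 from -0.48 to -2.66. Oasl1, likewise singled out afterwards, was the 1 member not called. Its effect was -1.31 at 8 h and -1.37 at 24 h, a difference of -0.06 (standard error 0.27, edgeR adjusted p = 0.879), with 13.2, 16.4 and 14.8 CPM in FGF6 cells at 24 h, and no FGF6 library overlapped a vehicle library. Markers of immune cells, summed over 8 genes, were at 11.8 to 13.6 raw CPM in vehicle 8 h and 10.9 to 11.6 in FGF6 8 h. At 24 h they were at 7.62 to 8.73 with vehicle and 3.38 to 3.97 with FGF6. Of these 8 markers 5 were at or under the floor in 3 of the groups and 6 in FGF6 24 h, and the defining marker Ptprc was at 0 in 11 libraries. The part of immune cell RNA in this and the next results on inflammatory genes was not tested.

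An interferon-stimulated response element is the DNA motif that ISGF3 recognizes. It was searched on both strands as GAAANNGAA in the promoters of RefSeq (GRCm38.p6, 250 bases before to 50 after the start). It was present in 17 of the 29 members with an entry (58.6%) and in 763 of all 10683 tested genes with an entry (7.14%). Irf7 and Oasl2 had no match in this window. The promoter of Ifi44 is printed because it is the member with the largest difference that has an entry. It lies at chr3:151749861-151750160 on the minus strand, and capitals mark the 1 match, which reads on the opposite strand and begins 3 bases before the start.
Ifi44: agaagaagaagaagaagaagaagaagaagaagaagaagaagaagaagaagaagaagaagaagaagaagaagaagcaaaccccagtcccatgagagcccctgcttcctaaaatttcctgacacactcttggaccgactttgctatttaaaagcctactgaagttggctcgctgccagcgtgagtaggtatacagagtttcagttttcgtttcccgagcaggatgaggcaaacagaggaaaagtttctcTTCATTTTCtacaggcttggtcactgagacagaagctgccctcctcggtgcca
A match is a run of letters and not a shown binding site.

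Complement components and inflammatory proteins moved the same way as the interferon-stimulated genes. Of 10 complement genes tested, 6 had a lower effect at 24 h (60%, against 22.5% of all genes) and none a higher one, with a median effect of -1.04 at 8 h and -3.67 at 24 h. C1s1, which encodes the serine protease of the first complement complex, had 180, 212 and 206 CPM with vehicle at 8 h and 147, 154 and 153 CPM at 24 h. FGF6 cells had 86.5, 81.9 and 81.6 CPM of C1s1 at 8 h and 3.17, 1.89 and 3.27 CPM at 24 h. All 4 groups were separate, and FGF6 at 24 h was lowest. The difference for C1s1 was -4.51 (standard error 0.14, edgeR adjusted p = 9.88e-19), and 18.4% of its exonic bases are shared with a gene on the other strand. C1ra, its partner protease, went from an effect of -1.003 to -4.78. C4b, which is cleaved by them, fell in vehicle cells as well, by 2.76 on the log2 scale, and in FGF6 cells by 6.93. FGF6 cells at 24 h had 0.146, 0.143 and 0.514 CPM of C4b, down to near the floor. The size of that fall is correspondingly uncertain.

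Among 29 NF-kB feedback genes, chemokines and cytokines, 21 had a lower effect at 24 h (72.4%) and 4 a higher one (13.8%). These shares were 22.5% and 22.6% over all genes. Saa3, an acute phase protein, had 519, 549 and 537 CPM with vehicle and 334, 291 and 303 CPM with FGF6 at 8 h. At 24 h Saa3 had 239, 159 and 146 CPM with vehicle and 1.97, 2.07 and 4.26 CPM with FGF6. Every group was separate from the others, and Saa3 fell with time in both arms, by 1.56 on the log2 scale in vehicle cells and by 6.81 in FGF6 cells. Its difference was -5.25 (standard error 0.23, edgeR adjusted p = 1.23e-15). Vcam1, an adhesion molecule for white blood cells, diverged instead. Vehicle cells rose from 207, 239 and 250 CPM of Vcam1 to 432, 458 and 478, and FGF6 cells fell from 96.8, 89.3 and 96.7 CPM to 32.6, 31.1 and 34.4. Lcn2, an iron-chelator binding protein of the acute phase, went from an effect of -0.92 to -3.33. The chemokine Cxcl9, known as a target of interferon gamma, rose in vehicle cells from 10.7, 9.34 and 11.5 CPM to 19.8, 26.4 and 24.4, and fell in FGF6 cells from 4.72, 2.15 and 3.16 CPM to 0.0729, 0.0714 and 0.33. The last 3 values are at or near the floor, and the fitted difference of -5.55 (standard error 0.53, edgeR adjusted p = 4.12e-09) is correspondingly uncertain in size.

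The extracellular matrix was the next large group. Of 22 collagen genes, 19 had a lower effect at 24 h (86.4%, against 22.5% of all genes), 13 of them by 2-fold. A higher effect was called for 1 of these collagens (4.55%, against 22.6%), or for 2 without FGF6 24 h replicate 1. Their median effect went from -0.56 to -2.08, with a median change of 0.09 in vehicle cells and -1.41 in FGF6 cells. For 3 collagens the sign turned. Col5a3, a minor chain of fibrillar type V collagen (chromosome 9, 20770050 to 20815067), had 189, 193 and 187 CPM with vehicle and 323, 312 and 329 CPM with FGF6 at 8 h. At 24 h Col5a3 had 154, 171 and 164 CPM with vehicle and 32, 32.1 and 30.9 CPM with FGF6. FGF6 libraries were thus above all vehicle libraries at 8 h and below all of them at 24 h. The effect went from 0.76 to -2.36, a difference of -3.12 (standard error 0.06, edgeR adjusted p = 3.87e-23). Col15a1, a basement membrane zone collagen, turned from 0.77 to -2.57. It fell in both arms with time, from 67.2, 77.5 and 72.6 CPM to 32.8, 38.1 and 39.7 with vehicle and from 121, 123 and 128 CPM to 6.02, 5.22 and 7.45 with FGF6. Col11a1, another minor fibrillar chain, strengthened from -1.33 to -3.94.

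Matrix glycoproteins and the enzymes that mature collagen were lower in effect for 26 of 36 (72.2%, against 22.5% of all genes). They were higher for 8 (22.2%, close to the 22.6% of all genes). Postn, a secreted matricellular protein, rose in vehicle cells from 319, 353 and 365 CPM to 555, 664 and 658, and fell in FGF6 cells from 152, 153 and 149 CPM to 20.5, 21.2 and 25.5. The groups were all separate, and the difference for Postn was -3.61 (standard error 0.10, edgeR adjusted p = 2.11e-19). Fmod, a small leucine-rich proteoglycan, had 1, 2 and 3 counts with FGF6 at 24 h against 74, 107 and 53 with vehicle, a ratio of 37.8 (95% exact interval 17.1 to 104, counting error only). Dcn, a proteoglycan of the same family, went the other way. It had 31.2, 35.2 and 33.4 CPM with vehicle and 28.6, 25.8 and 23.3 CPM with FGF6 at 8 h, and 21.2, 21 and 21.9 CPM with vehicle and 162, 121 and 114 CPM with FGF6 at 24 h. FGF6 libraries were below vehicle at 8 h and above it at 24 h without overlap, and Dcn turned from -0.36 to 2.63 (difference 2.99, standard error 0.15, edgeR adjusted p = 2.37e-14).

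Among 23 matrix metalloproteinases, related proteases and inhibitors, 13 were lower (56.5%, against 22.5% of all genes) and 2 higher (8.7%, against 22.6%). Mmp3, a protease of many matrix proteins, rose further with FGF6, from 4.23, 3.8 and 3.74 CPM to 13.2, 10.8 and 9.36. In vehicle cells Mmp3 fell from 0.505, 0.667 and 0.65 CPM to 0.28, 0.121 and 0.168, so that both arms contributed to the difference of 3.17 (standard error 0.39, edgeR adjusted p = 2.36e-07). Timp3, an inhibitor of these proteases, had 362 to 458 CPM in the 6 vehicle libraries, 407, 380 and 409 CPM with FGF6 at 8 h, and 57.9, 57.1 and 58.5 CPM at 24 h. At 8 h its effect was -0.20 and at 24 h -2.68, although 21.3% of its exonic bases are shared with a gene on the other strand. Mmp2, a gelatinase, strengthened from -1.59 to -3.75.

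Contractile genes and genes of neighbouring signaling pathways leaned to the lower side as well. Against 22.5% lower and 22.6% higher over all genes, 12 of 20 SRF targets and contractile genes were lower (60%) and 4 higher (20%), and 19 of 27 SLIT, semaphorin and ephrin genes were lower (70.4%) and 4 higher (14.8%). Of 21 WNT targets and inhibitors 9 were lower (42.9%) and 1 higher (4.76%), or 2 higher without vehicle 8 h replicate 1. Of 9 Notch genes 4 were lower (44.4%) and 1 higher (11.1%), or 0 higher without vehicle 8 h replicate 3. Acta2, smooth muscle actin, fell from 974, 1010 and 959 CPM to 608, 608 and 614 in vehicle cells and from 399, 372 and 358 CPM to 74.5, 80 and 77.7 in FGF6 cells. The difference for Acta2 was -1.60 (standard error 0.05, edgeR adjusted p = 1.22e-17). Muscle markers, summed over 8 genes, were at 10.2 to 14.4 raw CPM in vehicle 8 h and 5.66 to 7.36 in FGF6 8 h. At 24 h they were at 7.74 to 10.2 with vehicle and 1.97 to 2.63 with FGF6. In each group 3 to 5 of the 8 muscle markers were at or under the floor. Their part in the contractile genes was not tested. Rspo2, a secreted amplifier of WNT signaling, fell from 13.7, 13.1 and 13.5 CPM with FGF6 at 8 h to 1.64, 1.29 and 2.31 CPM at 24 h, while vehicle cells rose from 64.5, 69.1 and 67.5 CPM to 86.7, 97.3 and 99.6. Notch3, a receptor of mural and stromal cells, strengthened from -2.43 to -4.43, whereas Notch1 turned from 0.63 to -0.36. Plxna2, a semaphorin receptor, strengthened from -0.21 to -1.996. Of 23 BMP and TGF-beta genes 8 were lower (34.8%) and 7 higher (30.4%), and 2 of the lower ones changed sign. Fst, the activin inhibitor follistatin, turned from 0.30 to -1.74, and Ltbp2, a matrix protein of the latent TGF-beta binding family, from 0.44 to -1.55. In Ltbp2 both arms fell, vehicle from 208, 205 and 186 CPM to 58.2, 56.6 and 50.5 and FGF6 from 285, 257 and 269 CPM to 18.5, 18.8 and 19.2.

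Adipogenic genes had no member with a higher effect at 24 h, or 1 without vehicle 24 h replicate 1. Of 19 tested, 11 were lower (57.9%, against 22.5% of all genes), and the median effect went from -1.35 to -2.15. The median difference of these genes was -0.60, or -0.54 with the 2 members that had a group at 0 counts set at the floor. Agt, angiotensinogen, had 233, 259 and 244 CPM with vehicle and 94.8, 89.5 and 105 CPM with FGF6 at 8 h, and 145, 138 and 128 CPM with vehicle and 2.52, 1.86 and 3.6 CPM with FGF6 at 24 h. No 2 groups overlapped, and FGF6 at 24 h was lowest (difference -4.34, standard error 0.13, edgeR adjusted p = 9.31e-19). Zfp423, a factor of preadipocyte commitment, strengthened from -1.60 to -3.78. Cebpa, a master regulator of adipocyte differentiation, went from -0.30 to -2.15, rising in vehicle cells from 37.2, 36 and 36.8 CPM to 50.7, 50.1 and 47 and falling in FGF6 cells from 32, 28.3 and 28.6 CPM to 9.56, 11.5 and 12.2. Among 12 precursor markers tested, 5 were lower (41.7%) and 3 higher (25%), against 22.5% and 22.6% of all genes. Pdgfrb, a receptor of stromal precursors, strengthened from -0.59 to -2.37, and Ly6a (SCA1) from -1.24 to -2.91. Pi16, a marker of early stromal precursors, had 0.127 to 0.672 CPM in the other 9 libraries and 6.35, 5.29 and 7.16 CPM with FGF6 at 24 h (difference 3.00, standard error 0.59, edgeR adjusted p = 0.000159).

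Ucp1 transcripts were found only in FGF6 cells at 24 h among these 12 libraries. The 3 libraries there had 17, 19 and 25 counts, and the other 9 had 0. Against the per-library floor of 3 counts, FGF6 cells at 24 h were at least 6.88-fold higher than vehicle cells of that time, and at 8 h both groups were at 0, so no fold is given. The test of the difference for Ucp1 depended on the tool: edgeR's adjusted p was 1, limma's on voom values was 1.93e-05 and DESeq2's was 0.00964. The edgeR value carries no information, since an effect at 8 h cannot be estimated from groups at 0. In the same edgeR fit the adjusted p was 3.34e-06 for FGF6 against vehicle at 24 h. For FGF6 cells at 24 h against 8 h it was 5.49e-06. Of 12 brown fat regulators tested, 5 were lower in effect (41.7%, or 3 genes without FGF6 24 h replicate 2) and 1 higher (8.33%, or 2 genes with limma, DESeq2 or unscaled library sizes), against 22.5% and 22.6% of all genes. Esrra, a nuclear receptor of mitochondrial genes, had 28.3, 30 and 26.8 CPM with vehicle and 52.8, 52 and 49.6 CPM with FGF6 at 8 h, and 39.1, 35.6 and 33.6 CPM with vehicle and 36.3, 36 and 40.2 CPM with FGF6 at 24 h. The groups were separate at 8 h and overlapped at 24 h, and both arms had moved, in opposite directions (difference -0.81, standard error 0.08, edgeR adjusted p = 5.22e-09). Ppargc1b, a coactivator of such receptors, had an effect of -0.04 at 8 h and -1.06 at 24 h. Ppargc1a, its relative, had a difference of -0.54 (standard error 0.19, edgeR adjusted p = 0.0235), led by a rise in vehicle cells, and lost its call without FGF6 24 h replicate 2, FGF6 8 h replicate 2 or 3, or vehicle 8 h replicate 3, with adjusted p of 0.0637, 0.0537, 0.0687 and 0.0512.

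Mitotic genes were the clearest group with a higher effect at 24 h. They encode the cyclins, kinases, kinesins and kinetochore proteins that separate chromosomes. Of 40 tested, 39 had a higher effect (97.5%, against 22.6% of all genes) and none a lower one, but only 2 by 2-fold. At 8 h 36 were lower with FGF6 and 1 higher, and at 24 h 3 were lower and 33 higher. Over all genes 38.4% were lower and 32.4% higher at 8 h, and 37.9% and 35.9% at 24 h. The median effect turned from -0.37 to 0.33, and 29 of the 39 were called at both times with opposite signs. The treated cells led in 38 of the 39. Vehicle cells had a median change of 0.03, with 14 members higher and 8 lower at 24 h, against 25.5% and 23.7% of all genes. FGF6 cells had a median change of 0.75, with 39 higher and 1 lower, against 31.1% and 31.2% of all genes.

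Bub1, a kinase of the spindle checkpoint (chromosome 2, 127801122 to 127831865), had 89.2, 87.3 and 92.4 CPM with vehicle and 63.3, 60.6 and 58.4 CPM with FGF6 at 8 h. At 24 h Bub1 had 81.3, 78.8 and 83.3 CPM with vehicle and 140, 143 and 138 CPM with FGF6. FGF6 libraries moved from below every vehicle library to above them. The effect went from -0.56 to 0.79, a difference of 1.35 (standard error 0.06, edgeR adjusted p = 5.61e-16). Ccnb2, cyclin B2, had 84.1, 89.5 and 87.8 CPM with vehicle and 42.6, 41.9 and 43.3 CPM with FGF6 at 8 h, and 109, 116 and 113 CPM with vehicle and 114, 121 and 119 CPM with FGF6 at 24 h. The groups of Ccnb2 were separate at 8 h and overlapped at 24 h, so its reduction was no longer called (effect -1.03 at 8 h and 0.06 at 24 h, difference 1.10, standard error 0.07, edgeR adjusted p = 1.09e-12). Cenpf, a kinetochore protein, had 120 to 128 CPM in the 6 vehicle libraries, 75.8, 77.3 and 79.4 CPM with FGF6 at 8 h, and 153, 164 and 156 CPM at 24 h. Its effect turned from -0.66 to 0.34. Bora, an activator of mitotic kinases, singled out afterwards, was the 1 member not called, with effects of 0.25 and 0.38 and a difference of 0.13 (standard error 0.08, edgeR adjusted p = 0.187).

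Promoters of mitotic genes are known for a CHR element, bound by the DREAM and MuvB complexes, and for CCAAT boxes, bound by NF-Y. The CHR letters TTTGAA were present, on either strand, in 23 of the 31 members with a RefSeq entry (74.2%) against 1253 of 10683 tested genes (11.7%). CCAAT was present in 24 of the 31 (77.4%) against 4145 of 10683 (38.8%). The promoters of the 3 members with the largest difference are printed from 250 bases before to 50 after the start, with both motifs in capitals on whichever strand they read. In GRCm38.p6 they lie on the minus strand at chr2:127831810-127832109 for Bub1, chr9:70421505-70421804 for Ccnb2 and chr1:189688037-189688336 for Cenpf.
Bub1: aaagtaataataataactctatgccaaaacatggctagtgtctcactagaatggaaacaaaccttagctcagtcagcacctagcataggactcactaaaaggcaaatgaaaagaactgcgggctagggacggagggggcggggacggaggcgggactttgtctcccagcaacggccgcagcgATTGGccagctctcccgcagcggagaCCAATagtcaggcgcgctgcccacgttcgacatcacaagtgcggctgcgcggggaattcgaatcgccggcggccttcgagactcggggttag
Ccnb2: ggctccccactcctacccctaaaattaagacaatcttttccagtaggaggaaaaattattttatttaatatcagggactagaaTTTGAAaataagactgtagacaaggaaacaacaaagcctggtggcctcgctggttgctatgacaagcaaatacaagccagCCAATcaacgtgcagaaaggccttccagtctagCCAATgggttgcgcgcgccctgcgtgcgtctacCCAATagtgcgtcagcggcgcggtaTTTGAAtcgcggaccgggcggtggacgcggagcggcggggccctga
Cenpf: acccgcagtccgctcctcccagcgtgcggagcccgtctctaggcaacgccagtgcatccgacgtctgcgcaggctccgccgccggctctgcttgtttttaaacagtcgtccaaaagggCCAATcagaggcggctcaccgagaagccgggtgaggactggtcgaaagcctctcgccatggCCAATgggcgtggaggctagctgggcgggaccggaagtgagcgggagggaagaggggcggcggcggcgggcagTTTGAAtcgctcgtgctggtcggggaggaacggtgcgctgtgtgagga
Ccnb2 held 2 CHR matches and 3 CCAAT matches, Cenpf 1 and 2, and Bub1 none and 2. The CHR match nearest the start began at base 5 after it in Ccnb2 and at base 3 in Cenpf.

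DNA replication genes did not follow the mitotic ones to the same extent. Of 40 tested, 16 were higher in effect (40%, or 25 genes with unscaled library sizes) and 7 lower (17.5%), none by 2-fold. Those shares compare with 22.6% and 22.5% of all genes. The median effect of the replication genes was 0.13 at 8 h and 0.16 at 24 h. Cdt1, a licensing factor of replication origins, lost its increase: it had 184, 185 and 178 CPM with FGF6 at 8 h, 114, 114 and 123 CPM at 24 h, and 116 to 124 CPM in the 6 vehicle libraries (difference -0.63, standard error 0.05, edgeR adjusted p = 1.62e-10). Cdc45, a helicase subunit, showed a movement of the vehicle cells, which fell from 85.9, 90.6 and 89.1 CPM to 62.5, 62.1 and 64.8, while FGF6 cells had 87.4, 90.7 and 91.1 CPM at 8 h and 87.8, 86.5 and 88.6 CPM at 24 h. Rpa3, a subunit of the single-strand binding complex, gained an increase, from an effect of -0.08 to 0.50. Of 23 G1 cyclins, E2F factors and CDK inhibitors, 8 were higher (34.8%) and 7 lower (30.4%), against 22.6% and 22.5% of all genes. The inhibitor Cdkn2d (p19) weakened from -1.53 to -0.67, and E2f2 strengthened from 0.52 to 1.21, led by a fall in vehicle cells from 8.87, 10.4 and 9.17 CPM to 4.83, 5.1 and 6.26.

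**Figure D3:**
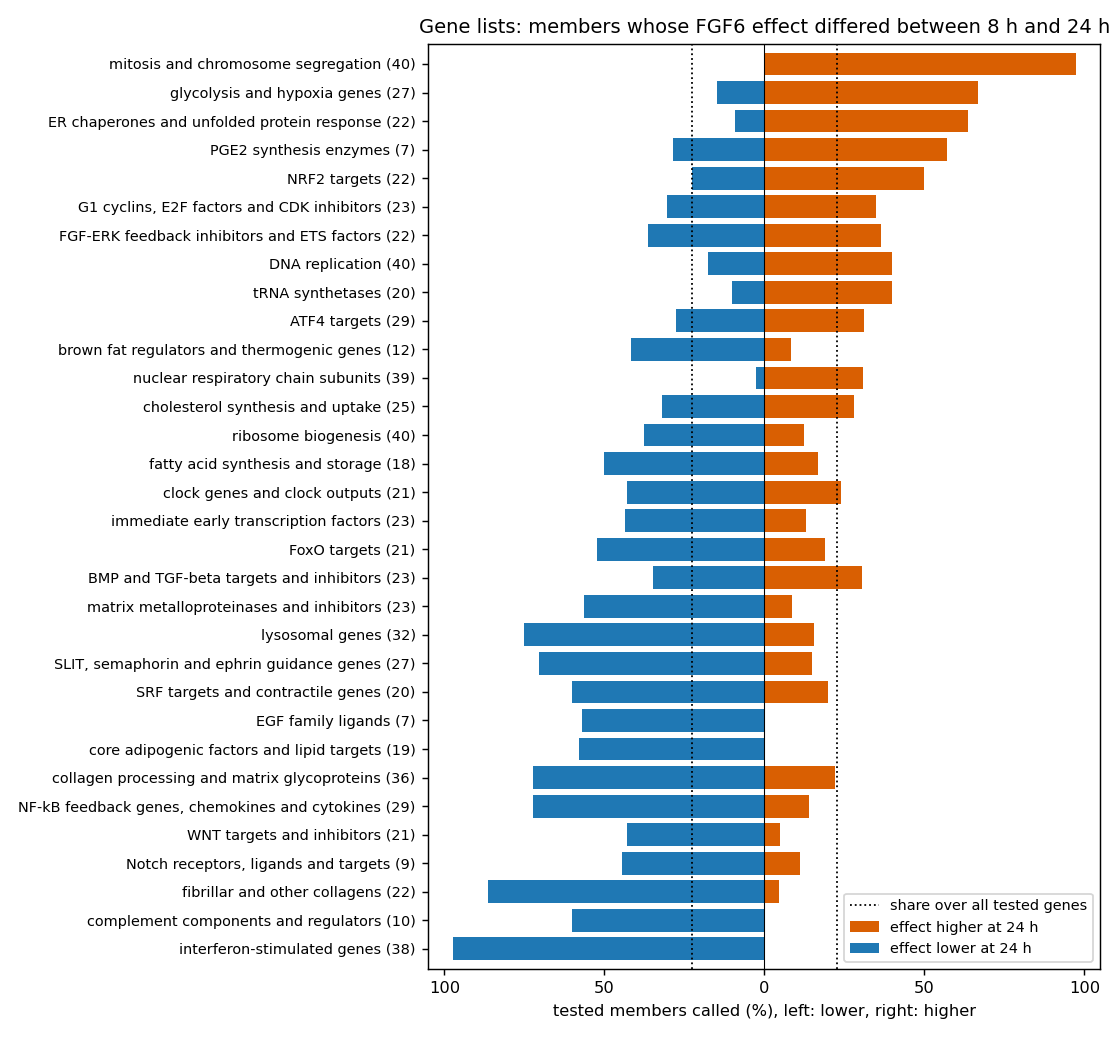
Bars give the share of tested members (number in parentheses) whose FGF6 effect was lower (left, blue) or higher (right, orange) at 24 h than at 8 h, at an edgeR adjusted p under 0.05. Dotted lines mark the shares over all 15071 genes, 22.5% lower and 22.6% higher; interferon-stimulated genes reach 97.4% lower and mitotic genes 97.5% higher.

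Glycolysis and hypoxia genes gained in effect for 18 of 27 tested (66.7%, against 22.6% of all genes), 6 of them by 2-fold, and lost for 4 (14.8%). These genes encode the glycolytic enzymes, lactate and glucose carriers and targets of the hypoxia-inducible factors. Their median effect went from -0.09 to 0.61, and 8 changed sign from lower to higher. Both arms rose with time, with 20 members higher in vehicle cells (median 0.31) and 25 in FGF6 cells (median 0.77). Over all genes 25.5% rose in vehicle cells and 31.1% in FGF6 cells. Slc16a3, the lactate exporter MCT4 (chromosome 11, 120948480 to 120960868), had 21.8, 22.9 and 21.2 CPM with vehicle and 20.5, 17.7 and 19 CPM with FGF6 at 8 h. At 24 h Slc16a3 had 26.1, 28.5 and 25.5 CPM with vehicle and 93.4, 90.8 and 91.9 CPM with FGF6. FGF6 libraries lay just below vehicle at 8 h and far above it at 24 h, and the effect turned from -0.20 to 1.78 (difference 1.99, standard error 0.08, edgeR adjusted p = 1.26e-16). Ankrd37, a hypoxia-inducible ankyrin repeat gene, turned from -1.10 to 1.51. It had 1.14, 1.04 and 0.863 CPM with FGF6 at 8 h and 13.2, 12.2 and 11.4 CPM at 24 h, against 2.71, 2.29 and 1.57 and then 4.03, 3.77 and 5.26 CPM with vehicle. Bnip3, a mitophagy receptor, turned from -1.34 to 0.50. Both Ankrd37 and Bnip3 share exonic bases with genes on the other strand, 26.4% and 22.3%.

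More genes that turned from lower to higher stood outside this list or in others. Mgarp, a mitochondrial protein known to respond to hypoxia, had 1.46, 1.48 and 0.945 CPM with FGF6 at 8 h and 11.5, 10.8 and 9.98 CPM at 24 h, against 5.33, 5.37 and 4.21 and then 7.11, 7.9 and 7.36 CPM with vehicle. The Mgarp effect turned from -1.92 to 0.53. Ddit4, an inhibitor of mTORC1 listed here with ATF4 targets, turned from -1.38 to 0.29 as vehicle cells rose from 54.8, 48.6 and 43.6 CPM to 122, 123 and 116 and FGF6 cells from 19.6, 18.9 and 17.8 CPM to 140, 152 and 150. Ccng2, an atypical cyclin among the FoxO targets, did likewise, from -1.67 to 0.19, with both arms rising. Fhod3, a formin that assembles actin, turned from -1.41 to 1.29, and here the vehicle libraries of 8 h and 24 h overlapped. Of all 21 FoxO targets 11 were lower in effect (52.4%, against 22.5% of all genes) and 4 higher (19%, against 22.6%). Of 29 ATF4 targets 8 were lower (27.6%) and 9 higher (31%), both near those shares.

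Stress and protein-folding genes shifted less. Of 22 ER chaperones and unfolded protein response genes, 14 were higher in effect (63.6%) and 2 lower (9.09%), none by 2-fold. Shares over all genes were 22.6% and 22.5%. Only 1 was lower without FGF6 24 h replicate 1 or 3, FGF6 8 h replicate 1, vehicle 24 h replicate 2 or vehicle 8 h replicate 2 or 3. The median effect of this list went from -0.34 to -0.03. Hspa5, the chaperone BiP, had 1490, 1440 and 1420 CPM with vehicle and 1070, 941 and 934 CPM with FGF6 at 8 h, and 1040, 1040 and 1070 CPM with vehicle and 1060, 1070 and 1060 CPM with FGF6 at 24 h. The vehicle cells had come down to the level of the treated cells, whose libraries overlapped between times (difference 0.58, standard error 0.06, edgeR adjusted p = 3.63e-09). Xbp1, a transcription factor of this response, was also led by vehicle cells and weakened from -0.86 to -0.20. Hsp90b1, the chaperone GRP94, was led by FGF6 cells, which rose from 1260, 1190 and 1160 CPM to 1920, 1860 and 1850, and turned from -0.45 to 0.12. Among 22 NRF2 targets, 11 were higher (50%, against 22.6% of all genes) and 5 lower (22.7%, near the 22.5% of all genes). Srxn1, sulfiredoxin, had 103 to 118 CPM in the 6 vehicle libraries, 301, 284 and 289 CPM with FGF6 at 8 h and 811, 813 and 807 CPM at 24 h (difference 1.55, standard error 0.05, edgeR adjusted p = 2.91e-18), whereas the glutathione transferase Gstm1 strengthened its reduction from -1.11 to -2.66.

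Lysosomal genes were lower in effect for 24 of 32 (75%, against 22.5% of all genes). They were higher for 5 (15.6%, against 22.6%), or for 3 without vehicle 24 h replicate 1 or vehicle 8 h replicate 2. Most of their differences were below 2-fold. Their median effect went from -0.39 to -0.79. Ctsf, cathepsin F, strengthened from -1.13 to -2.76. Npc2, which carries cholesterol out of the lysosome, had 555 to 624 CPM in the 6 vehicle libraries, 590, 531 and 547 CPM with FGF6 at 8 h and 258, 260 and 273 CPM at 24 h. The cysteine protease Ctsl went against the group. It rose with FGF6 from 1510, 1600 and 1580 CPM to 3260, 3160 and 3130, while vehicle cells had 448 to 528 CPM, and 26.8% of its exonic bases are shared with genes on the other strand (difference 1.22, standard error 0.04, edgeR adjusted p = 2.33e-17).

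**Figure D4:**
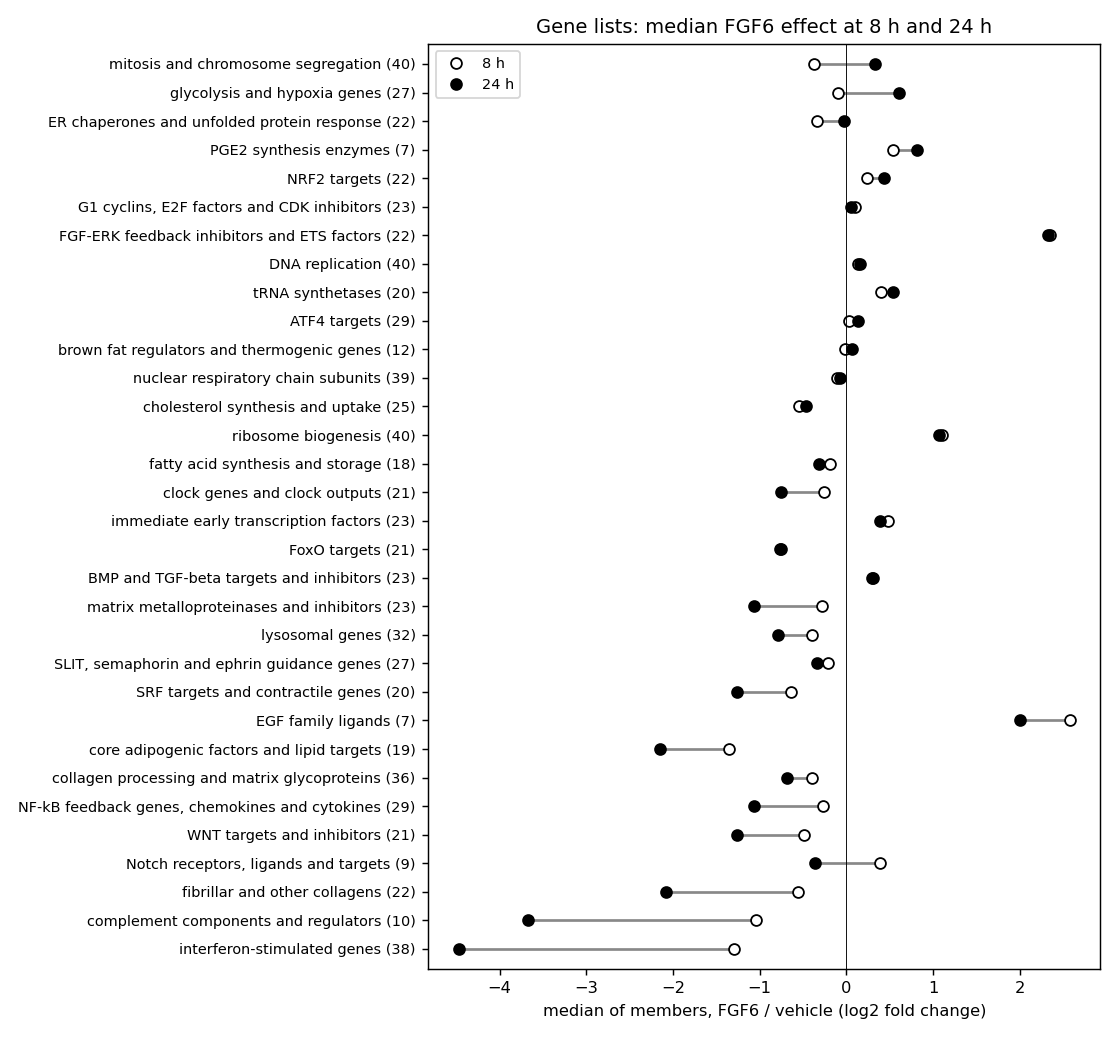
For each gene list, open circles give the median log2 fold change of FGF6 over vehicle at 8 h and filled circles that at 24 h, with the number of tested members in parentheses. Interferon-stimulated genes moved from -1.29 to -4.47 and mitotic genes from -0.37 to 0.33, while the medians of FGF-ERK feedback genes stood at 2.35 and 2.33.

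The increases that faded were led by an immediate early gene. Egr2, a zinc finger transcription factor (chromosome 10, 67535475 to 67542188), had 3.76, 3.91 and 4.18 CPM with vehicle and 60.6, 57.7 and 56.8 CPM with FGF6 at 8 h. At 24 h Egr2 had 4.45, 4.43 and 4.62 CPM with vehicle and 9.12, 8.43 and 9.18 CPM with FGF6. FGF6 libraries were above vehicle at both times, by far less at 24 h, and the effect weakened from 3.89 to 0.99 (difference -2.90, standard error 0.15, edgeR adjusted p = 3e-14). Its relative Egr1 weakened from 2.60 to 1.26, with FGF6 cells falling from 122, 112 and 113 CPM to 71.3, 68.8 and 71.8 and vehicle cells rising from 19.4, 17.8 and 19.9 CPM to 30.1, 29.3 and 29.3. Nr4a1, an orphan nuclear receptor, lost its increase as vehicle cells rose from 9.31, 8.17 and 7.05 CPM to 29.1, 29.1 and 30.3. Of the 23 immediate early factors tested, 10 were lower in effect (43.5%, against 22.5% of all genes), 3 higher (13%, against 22.6%) and 10 not called. Only 1 was higher without FGF6 24 h replicate 3 or with DESeq2.

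Outside this list, Fam20c, a secretory pathway kinase, had 193, 187 and 174 CPM with FGF6 at 8 h and 55.5, 57.1 and 60.4 CPM at 24 h, with 38.9 to 53.1 CPM in the 6 vehicle libraries. Its effect weakened from 2.16 to 0.24 (difference -1.92, standard error 0.07, edgeR adjusted p = 1.28e-16). Aldh1a3, which makes retinoic acid, fell in both arms, from 1.83, 1.21 and 1.88 CPM to 0.245, 0.603 and 0.462 with vehicle and from 19.1, 20.9 and 21.6 CPM to 0.62, 1.57 and 0.954 with FGF6. The Aldh1a3 effect weakened from 3.64 to 1.24. Mylk2, a myosin light chain kinase, was no longer called at 24 h, when its FGF6 and vehicle libraries overlapped (2.01 at 8 h, -0.46 at 24 h). The cationic amino acid carrier Slc7a2 went further and turned from 1.88 to -1.04, with 24.4, 23.8 and 23.7 CPM in FGF6 cells at 8 h, 3.06, 2.93 and 2.83 CPM at 24 h and 5.47 to 7.41 CPM in the 6 vehicle libraries. Anxa8, an annexin that binds membranes with calcium, turned from 0.94 to -2.59 (difference -3.54, standard error 0.15, edgeR adjusted p = 6.64e-16). It had 32.5, 35 and 35.8 CPM in FGF6 cells at 8 h and 3.17, 2.14 and 3.12 CPM at 24 h.

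FGF-ERK feedback genes kept a large effect at both times while single members went either way. Of 22 tested, 8 were higher (36.4%), 8 lower (36.4%) and 6 not called, against 22.6% higher and 22.5% lower of all genes. Without vehicle 8 h replicate 1, only 5 were higher. The median effect of the 22 was 2.35 at 8 h and 2.33 at 24 h. Etv1, an ETS factor, strengthened from 2.10 to 3.64, with FGF6 cells rising from 2.44, 2.02 and 1.64 CPM to 8.64, 8.89 and 8.07 and vehicle cells between 0.445 and 0.799 CPM. Spred3, a Sprouty-related inhibitor of ERK signaling, strengthened from 1.59 to 2.70. Spry1 instead gained a reduction: it had 4.43, 5.21 and 5.46 CPM with FGF6 at 8 h, 2.33, 2.36 and 2.35 CPM at 24 h and 5.42 to 6.91 CPM in the 6 vehicle libraries, and 24.4% of its exonic bases are shared with a gene on the other strand. Of 7 EGF family ligands, 4 were lower in effect (57.1%, against 22.5% of all genes) and none higher (against 22.6%). Hbegf weakened from 4.09 to 3.29 and Btc from 2.58 to 1.996. Nrg1, a ligand of the ERBB3 and ERBB4 receptors, strengthened its reduction from -1.61 to -3.34.

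At 2-fold, reductions that faded were fewer than increases that faded. They included genes of glycogen and lipid metabolism. Ppp1r3b, a glycogen-targeting subunit of protein phosphatase 1, had 6.16, 5.37 and 5.44 CPM with vehicle and 0.912, 0.639 and 0.699 CPM with FGF6 at 8 h. At 24 h Ppp1r3b had 8.76, 9.14 and 8.2 CPM with vehicle and 6.42, 5.82 and 6.79 CPM with FGF6. FGF6 cells stayed below vehicle cells at both times, but the effect weakened from -2.90 to -0.46 (difference 2.44, standard error 0.22, edgeR adjusted p = 1.72e-09). Lpin1, a phosphatidate phosphatase of lipid synthesis, rose in both arms, from 25.6, 25.1 and 23 CPM to 65.2, 67.6 and 70.4 with vehicle and from 4.66, 3.83 and 4.36 CPM to 34.8, 34.4 and 36.5 with FGF6. Its effect weakened from -2.52 to -0.94. Bmf, a BH3-only protein that promotes apoptosis, remained far lower with FGF6 at 24 h (effect -6.32 at 8 h and -4.13 at 24 h). Mpp2, a membrane scaffold protein, weakened from -2.11 to -0.53. Of 18 genes of fatty acid synthesis and storage, 9 were lower in effect (50%) and 3, Lpin1 among them, higher (16.7%). The shares over all genes were 22.5% and 22.6%.

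The largest increases and reductions that grew, or appeared at 24 h, were in single genes of varied function. Hao1, a peroxisomal hydroxyacid oxidase (chromosome 2, 134497361 to 134554368), had 0.035 to 0.168 CPM in the 6 vehicle libraries, 1.5, 1.04 and 1.44 CPM with FGF6 at 8 h and 12.9, 11.4 and 12 CPM at 24 h. All FGF6 libraries were above all vehicle libraries, and those of 24 h were highest (difference 3.52, standard error 0.64, edgeR adjusted p = 7.13e-05). The vehicle values of Hao1, at most 4 counts, are at or near the floor, so the size of this difference is uncertain. Nckap1l, a WAVE complex subunit best known from blood cells, had 142, 143 and 138 counts with FGF6 at 24 h against 0, 3 and 1 with vehicle, a ratio of 109 (95% exact interval 42.3 to 403, counting error only), and its effect at 8 h was 3.35. Nt5e, the ecto-nucleotidase CD73 that makes adenosine, rose with FGF6 from 1.95, 2.12 and 1.64 CPM to 10, 8.5 and 11, and fell with vehicle from 1.14, 1.3 and 1.34 CPM to 0.806, 0.754 and 0.589. The Nt5e effect strengthened from 0.61 to 3.76.

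Apod, apolipoprotein D (chromosome 16, 31296192 to 31314808), had the largest difference among the genes named by size. Vehicle cells had 22.8, 19.9 and 24.9 CPM of Apod at 8 h and 45.1, 51.2 and 40.6 CPM at 24 h. FGF6 cells had 25.8, 10.3 and 14.7 CPM at 8 h and 0.292, 0.286 and 0.514 CPM at 24 h. The groups overlapped at 8 h, where the effect was -0.40 (edgeR adjusted p = 0.0878), and were far apart at 24 h, where it was -6.96 (difference -6.56, standard error 0.49, edgeR adjusted p = 4.36e-11). Egfl6, a secreted matrix protein with EGF repeats, had 0, 0 and 2 counts with FGF6 at 24 h against 174, 216 and 163 with vehicle, a ratio of 268 (95% exact interval 73.8 to 2220). Ggt5, which processes glutathione and leukotrienes, had 0, 1 and 2 counts against 260, 404 and 275, a ratio of 303 (95% exact interval 103 to 1470). At 8 h the effects of Egfl6 and Ggt5 were -1.32 and -2.65.

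**Figure D5:**
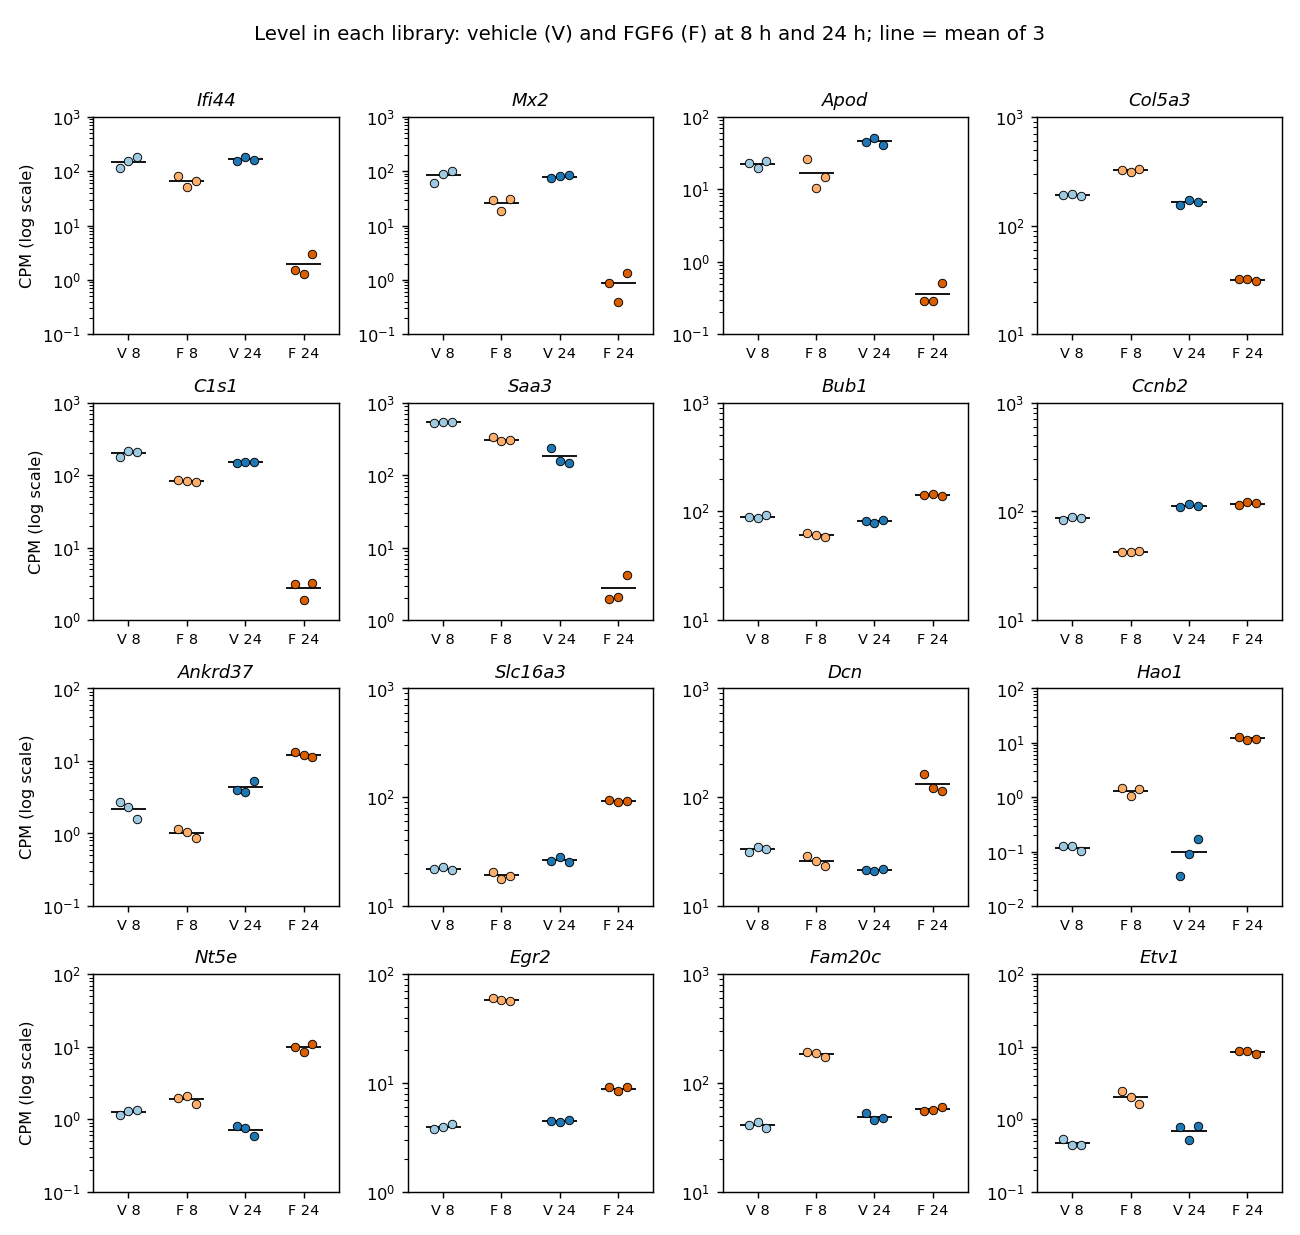
Each panel shows the CPM of 1 gene on a log axis in the 12 libraries, as points for vehicle (V) and FGF6 (F) at 8 h and 24 h, with a line at the mean of 3. FGF6 at 24 h is the lowest group for Ifi44, Mx2, Apod, Col5a3, C1s1 and Saa3 and the highest for Bub1, Ankrd37, Slc16a3, Dcn, Hao1, Nt5e and Etv1, while Egr2 and Fam20c are highest with FGF6 at 8 h.

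Some lists had an FGF6 effect of like median size at both times, or moved in both arms together. Ribosome biogenesis genes had a median effect of 1.11 at 8 h and 1.07 at 24 h. All 40 were higher with FGF6 at 8 h and 39 at 24 h, against 32.4% and 35.9% of all genes. Still, 15 of the 40 were lower in effect (37.5%) and 5 higher (12.5%), by small amounts, against 22.5% and 22.6% of all genes. Rrp9, a component of the U3 small nucleolar RNP, weakened from 1.70 to 1.20, and Rrs1 and Ppan, which act in large subunit assembly, from 1.76 to 1.30 and from 1.51 to 1.10. Of 20 tRNA synthetases 8 were higher in effect (40%) and 2 lower (10%), against 22.6% and 22.5% of all genes. Lars, the cytosolic leucyl enzyme, strengthened from 0.18 to 0.63 and Mars from 0.24 to 0.60. Of 39 nuclear subunits of the respiratory chain, 12 were higher (30.8%, against 22.6% of all genes), 1 lower (2.56%, against 22.5%) and 26 not called. Without FGF6 24 h replicate 2, 2 subunits were lower. The median effects of the subunits were -0.11 and -0.07. The 1 lower subunit, Cox6a1, was led by vehicle cells, which rose from 223, 225 and 213 CPM to 339, 332 and 319 while FGF6 cells had 220, 215 and 216 CPM and then 226, 229 and 235.

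Cholesterol synthesis and uptake genes rose with time in both arms. All 25 tested were higher at 24 h than at 8 h in vehicle cells (median 1.12), and 24 were in FGF6 cells (median 1.13). Over all genes 25.5% rose in vehicle cells and 31.1% in FGF6 cells. The median effect was -0.54 at 8 h and -0.47 at 24 h. In effect 7 members were higher (28%) and 8 lower (32%), against 22.6% and 22.5% of all genes. Hmgcs1, which makes the precursor of mevalonate, rose from 303, 285 and 296 CPM to 742, 822 and 835 with vehicle and from 105, 92.9 and 94.3 CPM to 408, 430 and 433 with FGF6. Its effect weakened from -1.60 to -0.92 (difference 0.68, standard error 0.07, edgeR adjusted p = 2.53e-08).

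Prostaglandin E2 enzymes kept their increase. Of 7 tested, all 7 were higher with FGF6 at 8 h and at 24 h, against 32.4% and 35.9% of all genes. The median effect was 0.54 and then 0.82. In effect 4 were higher at 24 h and 2 lower, against 22.6% and 22.5% of all genes, with 1 lower without FGF6 24 h replicate 1 or 2, FGF6 8 h replicate 1 or 3, vehicle 24 h replicate 1 or 2, or vehicle 8 h replicate 2 or 3. Ptgs2, the inducible cyclooxygenase, had 1270, 1170 and 1180 CPM with FGF6 at 8 h and 1060, 877 and 842 CPM at 24 h, with 78 to 97.9 CPM in the 6 vehicle libraries. It weakened from 3.86 to 3.45 (difference -0.40, standard error 0.10, edgeR adjusted p = 0.00221). Pla2g12a, a secreted phospholipase, strengthened from 0.54 to 0.95, and Pla2g4a, the cytosolic phospholipase, from 0.17 to 0.49. Ptges, the terminal synthase, had effects of 1.58 and 1.53, a difference of -0.05 (standard error 0.06, edgeR adjusted p = 0.561), whose sign turned with unscaled library sizes. Of the pair of partner proteins studied alongside Esrra, Lrrfip1 weakened from 1.33 to 1.00 as vehicle cells rose from 102, 98.1 and 97.7 CPM to 122, 115 and 121, and Flii had effects of 0.02 and 0.09 (difference 0.07, standard error 0.05, edgeR adjusted p = 0.325).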

How the data were processed

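RNA-seq counts per gene of 18 libraries were used, 3 for each of vehicle and FGF6 at 4, 8 and 24 h. The authors aligned the reads to GRCm38 with STAR, counted them over GENCODE genes by featureCounts of Subread and deposited raw counts without normalization. Versions, annotation release and strand setting are not given in the sources used here, so genes that overlap on opposite strands are uncertain.

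Of 48023 genes, 15071 passed edgeR's filterByExpr over 6 groups. Libraries were scaled by TMM, and a quasi-likelihood model in edgeR 4.0.16 (R 4.3.3) had 1 mean per group and no covariates. The contrast was the FGF6 effect at 24 h less that at 8 h, with Benjamini-Hochberg adjustment over all genes, and a gene was called at an adjusted p under 0.05, or at 2-fold with a difference of at least 1 as well. The standard error is the one implied by the F statistic. The scripts were tested on simulated data. Gene lists were counted, not tested. The members and lists were chosen with earlier results of these data known. Named genes have a usual symbol, a call and at least 5 CPM in the highest group, and are the 4 with the largest difference in each of 6 kinds of change, plus the 3 with the largest difference in each list at 1 CPM or more, and genes central to the study. A few genes are not reported here. Positions came from GENCODE M21 on GRCm38 and promoters from RefSeq on GRCm38.p6, in which 10683 of the 15071 genes had an entry. Intervals and floors (3 counts) cover counting error only. Replicates of a group differed by more than sampling noise (chi-square per degree of freedom at least 2.34). Alternatives were limma 3.58.1 with voom, DESeq2 1.42.0, unscaled library sizes, scaling by the upper quartile, no low-count filter, a minimum of 10 counts in all libraries, the 12 libraries alone, the replicate number as a block, an FDR of 0.25 and leaving out each library.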

Additional observations from a re-analysis of the deposited data

Results flagged for a closer look

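Of the 126 genes named by the rule, 22 were called at 8 h and at 24 h with opposite signs. They passed the test of the difference (edgeR adjusted p under 0.05). Their FGF6 and vehicle libraries did not overlap at either time. The rule takes genes with the largest differences and draws on both reversed kinds, so the number 22 is partly set by that choice. Among all tested genes, 264 went from higher to lower and 425 from lower to higher, with overlap of libraries not considered. How many of those also had no overlap was not counted. The number 22 therefore cannot be set against a share of all genes. For the 22 genes, the differences of the FGF6 effect, 24 h less 8 h on the log2 scale, follow. From higher to lower went Anxa8 (-3.54), Col15a1 (-3.34), Col5a3 (-3.12), Slc7a2 (-2.92), Fst (-2.04), Ltbp2 (-1.99), the macrophage marker Cd68 (-1.11), Notch1 (-0.985) and the glutathione transferase Gsta4 (-0.895). From lower to higher went the respiratory chain subunit Ndufb5 (0.312), Hsp90b1 (0.572), the clock output Ciart (0.87), Cenpf (0.995), Bub1 (1.35), Ddit4 (1.67), Bnip3 (1.84), Ccng2 (1.86), Slc16a3 (1.99), Mgarp (2.44), Ankrd37 (2.61), Fhod3 (2.71) and Dcn (2.99).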

How the results depend on the processing

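The larger counts that moved by over 1.5 times did so under 3 settings. With at least 10 counts in every library, 165 genes were higher and 631 lower at 2-fold, and 565 were treated-led, 77 vehicle-led and 148 moved in opposite directions. At an FDR of 0.25, 457 were higher at 2-fold, 998 increases and 1039 reductions had weakened, 476 genes went from higher to lower and 702 from lower to higher, and 213 were vehicle-led. With unscaled library sizes, 25 replication genes were higher and 4 lower, 13 G1 genes were higher, 5 cholesterol genes were lower, and the difference for Ptges was 0.006 (edgeR adjusted p = 0.95). The first and second of these settings change the number of genes tested or called by construction. For the third the cause was not tested. The share of higher genes among those called was 50.2%, 59% with unscaled library sizes, 55.1% with upper-quartile factors and 46.8% with DESeq2, and no setting moved the median of all genes by over 0.059. Same-numbered libraries did not deviate together (r from -0.0324 to 0.0486 over 18 pairs), so their numbers were not taken to pair them. With the replicate block, 3447 genes were higher and 3408 lower, and no call of a named gene changed. In all, 48 values of counts moved so under an alternative and 26 with a library left out, mostly small counts of a list, and those of a left-out library stand beside the lists described. Leaving out each library in turn gave 3128 to 3308 higher and 3159 to 3314 lower genes. Of the genes the naming rule chose, Trim63, S100b and Ppargc1a lost their call as given beside them, the smooth muscle actin Actg2 (-1.48) without FGF6 24 h replicate 1 (edgeR adjusted p = 0.0542) or replicate 2 (0.0668), and Notch4 (1.17) without vehicle 8 h replicate 3 (0.0525).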

Other observations

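Marker genes of other cell types also differed in effect, at low levels. Tnnt3, fast skeletal troponin T, had 1, 2 and 3 counts with FGF6 at 24 h against 32, 54 and 54 with vehicle, a ratio of 22.6 (95% exact interval 10.1 to 62.6, counting error only), and an effect of -0.77 at 8 h. Myog, a muscle differentiation factor, had 0.944, 1.08 and 0.781 CPM with FGF6 at 8 h, 0.328, 0.286 and 0.477 CPM at 24 h and 2.91 to 4.8 CPM in the 6 vehicle libraries. The FGF6 libraries lay below the vehicle libraries at both times. Kdr, an endothelial VEGF receptor, lost its increase (2.10 at 8 h and 0.39 at 24 h), while Pecam1 had at most 7 counts in any library. Cdh5, an endothelial cadherin on the same list, named after its values were seen, went the other way, with 33, 15 and 31 counts with FGF6 at 8 h, 114, 104 and 79 at 24 h and 0 to 3 with vehicle, though its difference was not called (2.07, edgeR adjusted p = 0.138). The summed endothelial markers were at 1.85 to 2.45 raw CPM with vehicle and 3.54 to 5.34 with FGF6 at 8 h. At 24 h they were at 1.73 to 2.18 and 4.66 to 6.25. S100b, a glial marker, had 76, 80 and 58 counts with vehicle at 24 h and 3, 6 and 9 with FGF6, and lost the call of its difference without FGF6 24 h replicate 1 (adjusted p = 0.065) or FGF6 8 h replicate 1 (0.0569), and with no filter on low counts (0.0501), all from edgeR.

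Clock genes rose more often than all genes in vehicle cells from 8 h to 24 h (13 of 21 higher, against 25.5% of all genes). The 4 that fell there were near the 23.7% of all genes. Their FGF6 effect as a list was lower for 9 (42.9%, against 22.5% of all genes) and higher for 5 (23.8%, near the 22.6% of all genes). Dbp, a clock output factor, rose from 5.33, 4.8 and 4.76 CPM to 25.9, 24.5 and 23.9 with vehicle and from 2.64, 2.39 and 2.51 CPM to 6.75, 5.57 and 8.22 with FGF6. Its reduction strengthened from -0.98 to -1.86 (edgeR adjusted p = 0.000435). Ciart, a repressor of the clock, turned from -0.35 to 0.52 while both arms rose, and Nfil3, which opposes Dbp, weakened from -1.78 to -1.05, led by a fall in vehicle cells from 62.6, 61.1 and 58.4 CPM to 41.2, 41.6 and 36.2. Trim63, a muscle ubiquitin ligase among the FoxO targets, had 1 count in each FGF6 library at 24 h against 30, 52 and 25 with vehicle, a ratio of 34.5 (95% exact interval 11.5 to 170), and lost the call of its difference without FGF6 24 h replicate 2 (edgeR adjusted p = 0.0501) or FGF6 8 h replicate 1 (0.217).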
